A study of Homo sapiens with 8 samples.

Results

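Beta-catenin and the destruction complex that degrades it were followed here at the level of messenger RNA, in 8 genes chosen by name: CTNNB1, APC, AXIN1, GSK3A, GSK3B, CSNK1A1, BTRC and FBXW11. Each of the 8 symbols was found once among the 25192 genes listed for every library. The libraries came from the human colorectal cancer cell lines HT29, grown in McCoy's 5A medium, and SW480, grown in RPMI1840 medium, both with fetal bovine serum. Cells of each line were transfected for 36 h with control siRNA (siCon) or with an siRNA against PRDX2 (siPrdx2), the gene of the peroxide-reducing enzyme peroxiredoxin II, in duplicate, which gave 4 groups of 2 libraries. Both lines carry truncated APC. Line, medium and submission cannot be told apart, since the sample records of the lines are numbered in separate runs. Each group is 1 line under 1 siRNA label. Which siRNA against PRDX2 was used is not named in the labels. The labels do not say whether duplicates were separate cultures, and the study speaks of duplicate experiments for HT29 without saying more, so the p-values measure only the spread between these libraries, which may be technical.

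Beta-catenin, encoded by CTNNB1, links cadherins to the cytoskeleton at cell junctions and activates transcription with TCF/LEF factors in the nucleus. In cells without a Wnt signal, the scaffold proteins APC and axin hold it beside casein kinase 1 alpha (CSNK1A1) and glycogen synthase kinase 3 (GSK3A and GSK3B), which phosphorylate its N terminus in turn. The phosphorylated stretch is then bound by the F-box proteins BTRC or FBXW11, which bring it to a ubiquitin ligase for degradation by the proteasome. Truncation of APC is the usual way in which colorectal tumors lose this brake. The study asked how peroxiredoxin II acts on this degradation when APC is mutated, and its central scaffold was Axin1. It reported no change of beta-catenin or Axin1 mRNA between mouse polyps with and without peroxiredoxin II. It also reported that depletion left the beta-catenin mRNA level of the cancer cells unchanged. Because the complex acts on protein, the mRNA values below give the supply of its parts and say nothing of its activity.

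The stretch that the complex writes and reads is shown because 5 of the 8 genes act on it directly. It lies in exon 3 of CTNNB1 at chr3:41266088-41266147 of GRCh37, plus strand, and runs from codon 29 to codon 48. The capitals mark the 6 codons, 32 to 37, of the phosphorylation motif that BTRC and FBXW11 bind (aspartate, serine, glycine, any pair of residues, serine), the only match to that motif among the 781 codons.
CTNNB1 codons 29 to 48: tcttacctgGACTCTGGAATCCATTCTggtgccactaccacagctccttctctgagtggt
The letters are those of the reference genome. Casein kinase 1 alpha first phosphorylates a serine downstream of the capitals, and glycogen synthase kinase 3 then proceeds towards them.

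The genes lie on 5 chromosomes. On GRCh37, CTNNB1 spans 41236232 to 41301587 and GSK3B 119540168 to 119813841 of chromosome 3, and APC 112043215 to 112181936, CSNK1A1 148872545 to 148931034 and FBXW11 171288553 to 171433877 of chromosome 5. BTRC spans 103113790 to 103317078 of chromosome 10, AXIN1 337440 to 402723 of chromosome 16 and GSK3A 42730377 to 42746777 of chromosome 19. Reads were counted over exons without strand information from a library kit that does not mark it. Exons of ZNF526 overlap those of GSK3A on the opposite strand, and ZNF526 was listed at 208 to 378 expected counts per library. An exon of the noncoding GSK3B-DT likewise overlaps GSK3B. The retrogene CSNK1A1L, a near copy of CSNK1A1, was listed at 169 to 237 expected counts per library, so the division of reads between that pair is uncertain.

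Library totals ran from 8857442 to 10164137 deposited expected counts, and 3 counts, the floor used for absence, corresponded to 0.293 to 0.335 CPM (counts relative to the library total, with edgeR's TMM factors over the 8 libraries). PRDX2 counts gave 152.9 and 158.6 CPM under control siRNA against 85.25 and 85.91 under PRDX2 siRNA in HT29, and 202.0 and 237.8 against 67.17 and 68.27 CPM in SW480, so the target was lower in each depleted library. The SW480 control duplicates stood apart from each other. A chi-square of their counts over genes was 10.6 per degree of freedom, against 1.42 to 2.08 in the other groups, and their log ratio followed transcript GC content (Spearman's rho -0.69, against -0.20 to -0.12). SW480 results for the 8 genes are therefore given with and without these libraries. Of 10 epithelial markers, none was at 0 TPM in either line, with summed levels of 17200 to 18500 TPM in HT29 and 9880 to 10900 TPM in SW480, but KRT20 and LGALS4 reached only 1.34 and 1.03 TPM in SW480 and CDX1 only 0.28 TPM. Of 10 markers of other cells, the leukocyte marker PTPRC was at 0 in all 8 libraries, VIM was at 620 to 794 TPM in SW480 and at most 0.56 in HT29, and LYZ was at 4430 to 4650 TPM in HT29 and at most 7.33 in SW480. The summed level of these 10 markers was 4560 and 4680 TPM in HT29 control libraries against 4450 and 4600 with PRDX2 siRNA, and 781 and 827 against 658 and 665 in SW480. Most of this sum was LYZ in HT29 and VIM in SW480, so it mainly followed 1 gene in each line. VIM was at 753 and 794 TPM in SW480 control libraries against 620 and 632 with PRDX2 siRNA. The part of these markers in the results below was not tested.

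The order of the genes was compared by TPM, the deposited measure that corrects for transcript length. In HT29 control libraries CSNK1A1 was the most abundant of the 8, at 160 ± 4.31 TPM (SD, n = 2), followed by CTNNB1 at 150 ± 3.18, GSK3A at 104 ± 0.148, AXIN1 at 61.1 ± 0.0424, GSK3B at 44.1 ± 0.735, FBXW11 at 39.4 ± 1.90, APC at 14.8 ± 0.445 and BTRC at 8.64 ± 0.297. In SW480 control libraries CTNNB1 came first at 1100 ± 14.1 TPM, far above CSNK1A1 at 186 ± 18.9 and GSK3A at 90.7 ± 8.53, and the order went on with FBXW11 at 60.7 ± 3.72, GSK3B at 35.8 ± 2.11, APC at 22.5 ± 3.30, AXIN1 at 21.6 ± 3.41 and BTRC at 13.4 ± 0.523. Within these groups only APC and AXIN1 in SW480 overlapped as neighbours. BTRC was the scarcest message in both lines. AXIN1 stood 4th in HT29 and 7th in SW480, FBXW11 6th and 4th, and no other gene moved by more than 1 place.

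**Figure D1:**
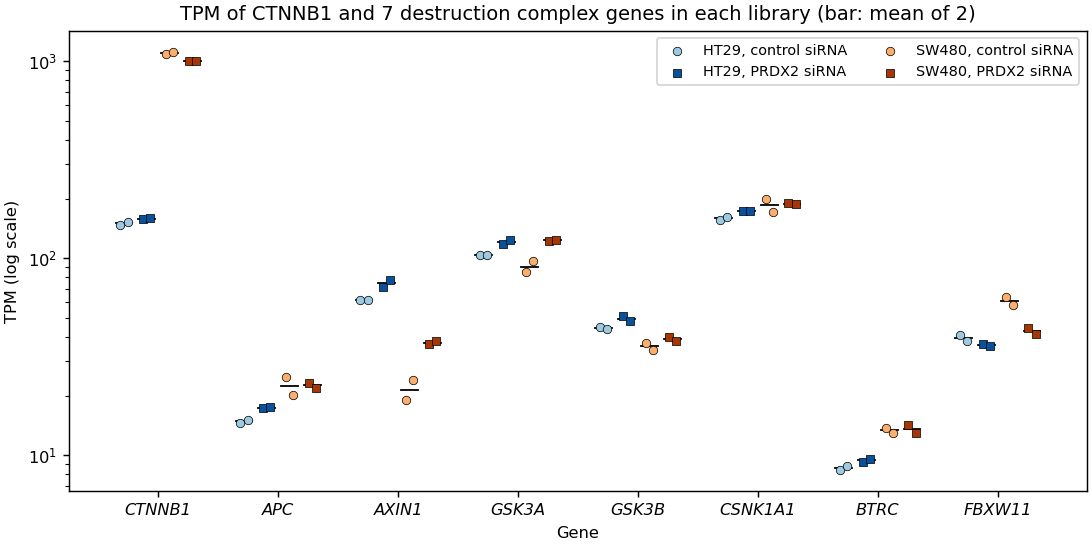
TPM of the 8 genes in each library on a log axis, with points for the 2 libraries of each of the 4 groups and a bar at their mean. CTNNB1 sits near 150 TPM in HT29 and near or above 1000 TPM in SW480, and AXIN1 steps up and FBXW11 down between control and PRDX2 siRNA in SW480.

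The first comparison set the lines side by side without depletion. CTNNB1 read 249.9 and 255.6 CPM in HT29 control libraries against 1672 and 1703 CPM in those of SW480. The HT29 level was 6.66-fold lower, a log2 fold change of -2.74 (95% interval -2.93 to -2.54, adjusted p = 6.85e-08, edgeR's quasi-likelihood test). AXIN1, a scaffold of the complex, went the other way. It read 104.9 and 104.6 CPM in HT29 against 29.82 and 37.76 CPM in SW480, 3.10-fold higher in HT29 (log2 fold change 1.63, 95% interval 1.32 to 1.95, adjusted p = 1.24e-05, edgeR). The second axin gene, AXIN2, was lower in HT29 (log2 fold change -2.77, adjusted p = 9.81e-08, edgeR). The summed TPM of both axins was 111 and 111 in HT29 control libraries against 381 and 402 in those of SW480.

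The remaining genes differed by less. Relative to SW480, edgeR gave HT29 higher levels of the kinases GSK3B (log2 fold change 0.43, adjusted p = 0.00597) and GSK3A (0.32, adjusted p = 0.0339). GSK3A did not pass with DESeq2 (adjusted p = 0.0676), and neither kinase passed with limma on log2(TPM + 1) (adjusted p = 0.143 for GSK3A and 0.0524 for GSK3B). In HT29, edgeR gave lower levels of BTRC (-0.51, adjusted p = 0.00709), FBXW11 (-0.49, adjusted p = 0.00363) and APC (-0.47, adjusted p = 0.0096). CSNK1A1 did not pass the threshold (-0.09, 95% interval -0.33 to 0.15, adjusted p = 0.47, edgeR). In all, 7 of the 8 genes passed, 3 higher and 4 lower in HT29, where 67.5% of the 14346 genes tested passed as well, so the count itself is close to the background and the sizes for CTNNB1 and AXIN1 carry the result. CTNNB1 and AXIN1 also passed with any control library left out, between -2.83 and -2.69 and between 1.39 and 1.75. Without HT29 control replicate 1 or 2 only these 2 of the 8 passed, where 50.3% and 50.1% of all genes did. Without SW480 control replicate 1 the 7 genes passed (75.0% of all genes), and without SW480 control replicate 2 all 8 did (77.4%), CSNK1A1 at -0.25. The median over all genes tested was -0.04, and -0.15 on the log2(TPM + 1) scale.

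**Figure D2:**
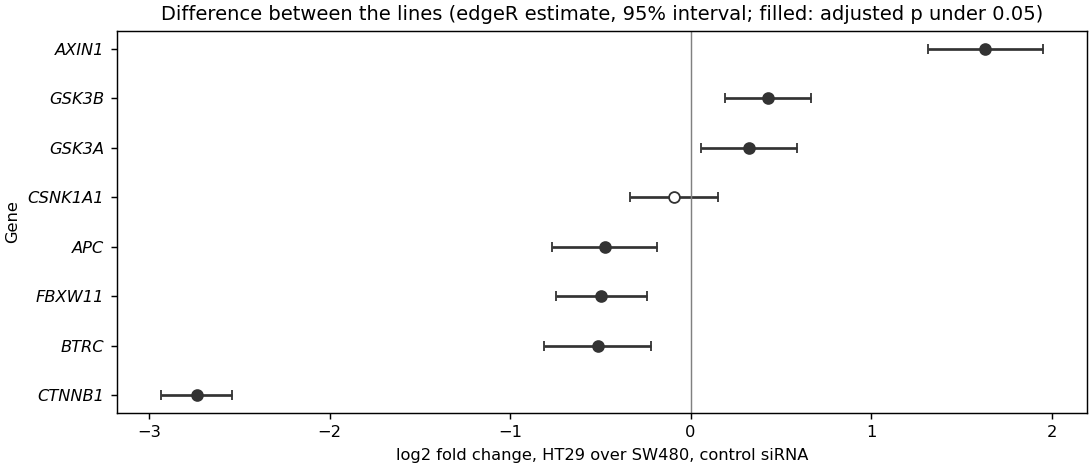
The log2 fold change of HT29 over SW480 in control libraries for each gene, with 95% intervals from edgeR and filled points for an adjusted p under 0.05. CTNNB1 lies at -2.74 and AXIN1 at 1.63, and the other 6 lie between -0.51 and 0.43.

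As ratios within a library, CTNNB1 stood at 10.1 and 10.2 times the TPM of APC in HT29 control libraries and at 44 and 55.1 times in SW480. Against AXIN1 the ratio was 2.42 and 2.50 in HT29 and 57.1 and 46.5 in SW480. Against the sum of AXIN1 and AXIN2 it was 1.33 and 1.38 in HT29 and 2.87 and 2.77 in SW480. CDH1 encodes E-cadherin, the junctional partner of beta-catenin, and is named here after its values were seen. It was at 605.0 and 583.8 CPM in HT29 and at 25.24 and 26.52 CPM in SW480, 23.0-fold higher in HT29 (log2 fold change 4.52, adjusted p = 2.36e-08, edgeR). CTNNB1 was thus at 0.564 and 0.602 times the TPM of CDH1 in HT29 control libraries and at 91.3 and 89.2 times in SW480.

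The second comparison asked what PRDX2 depletion did to the substrate. CTNNB1 in HT29 read 249.9 and 255.6 CPM under control siRNA and 252.9 and 258.9 CPM with PRDX2 siRNA. The groups overlapped, and edgeR gave a log2 fold change of 0.02 (95% interval -0.06 to 0.09, adjusted p = 0.825). In SW480, 1672 and 1703 CPM under control siRNA stood against 1443 and 1446 CPM under PRDX2 siRNA. Both depleted libraries were lower, but the estimate of -0.23 (95% interval -0.38 to -0.07) had an adjusted p of 0.108 with edgeR. The call depended on the fit. With all 8 libraries fitted together the same estimate had an adjusted p of 0.0154 (edgeR), and without SW480 control replicate 1 or 2 it passed at -0.24 and -0.22. With an offset for transcript GC content the estimate was -0.13 and did not pass. Without PRDX2 siRNA replicate 1 or 2 it was -0.222 and -0.225 and did not pass, nor did CTNNB1 with DESeq2 (adjusted p = 0.208). Many more genes passed in SW480 without a control library, 24.6% of those tested without replicate 1 and 52.8% without replicate 2, which bears on every SW480 call given below for these fits.

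The third comparison was the effect on the complex itself. In HT29, edgeR called 4 of the 8 genes, AXIN1, APC and GSK3A higher and FBXW11 lower with PRDX2 siRNA, where 17.6% of the 12961 genes tested were called. In SW480 it called AXIN1 higher and FBXW11 lower, 2 of 8, where 3.30% of 14112 genes were called. Both genes moved in the direction they had in HT29. CTNNB1, GSK3B, CSNK1A1 and BTRC were called in neither line, with GSK3B the only one of these 4 under an unadjusted p of 0.05 in HT29 and CTNNB1 the only one in SW480. Over all genes tested with edgeR, 3909 of 12961 were under it in HT29 and 3447 of 14112 in SW480.

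AXIN1 had the smallest adjusted p of the 8 in HT29. Its level went from 104.9 and 104.6 CPM under control siRNA to 117.6 and 127.1 CPM under PRDX2 siRNA. Both depleted libraries lay above both controls, a log2 fold change of 0.22 (95% interval 0.11 to 0.33, adjusted p = 0.00608, edgeR). In SW480 AXIN1 went from 29.82 and 37.76 CPM to 53.85 and 56.26 CPM, again without overlap. The log2 fold change was 0.70 (95% interval 0.38 to 1.03, adjusted p = 0.038, edgeR), a 1.63-fold rise. AXIN1 transcripts have 62.0% GC, the highest of the 8 genes, and in SW480 the estimate moved to 0.47 with the GC offset (adjusted p = 0.00266), to 0.54 without control replicate 1 and to 0.88 without control replicate 2. Without PRDX2 siRNA replicate 1 or 2 the estimate of 0.74 or 0.67 no longer passed (adjusted p = 0.246 and 0.384, edgeR), in fits that called 0.754% and 0.625% of all genes.

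APC, the other scaffold and the gene that is truncated in both lines, went from 75.11 and 78.34 CPM to 85.46 and 87.32 CPM in HT29. Both depleted libraries were higher (log2 fold change 0.17, 95% interval 0.06 to 0.28, adjusted p = 0.0359, edgeR). In SW480 the control libraries, at 117.6 and 96.26 CPM, enclosed the depleted ones at 103.6 and 97.97 CPM. The estimate there was -0.09 (95% interval -0.37 to 0.20, adjusted p = 0.701, edgeR), and without control replicate 2 it was -0.23 and passed, while without control replicate 1 it was 0.06 and did not.

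Of the kinases, GSK3A in HT29 went from 106.9 and 107.1 CPM to 115.6 and 122.8 CPM, without overlap (log2 fold change 0.15, 95% interval 0.05 to 0.26, adjusted p = 0.0421, edgeR). In SW480 the values were 79.52 and 91.72 against 109.1 and 109.7 CPM, also without overlap, but the estimate of 0.35 (95% interval 0.09 to 0.61) had an adjusted p of 0.117 with edgeR. It passed with all 8 libraries fitted together, with the GC offset at 0.21 (adjusted p = 0.0338, edgeR), and without control replicate 1 or 2 at 0.25 and 0.45. It did not pass without PRDX2 siRNA replicate 1 or 2, at 0.36 and 0.35. Nor did it pass with DESeq2 (adjusted p = 0.146), limma on log2(TPM + 1) (adjusted p = 0.0881) or a replicate block in edgeR (adjusted p = 0.0755). ZNF526, which overlaps GSK3A on the opposite strand, had 208 and 251 expected counts in SW480 control libraries and 256 and 303 with PRDX2 siRNA. In HT29 it had 378 and 329 against 325 and 301. Its part in the GSK3A counts was not tested. GSK3A transcripts have 57.8% GC, next to AXIN1 among the 8, whereas the other 6 have 40.5% to 46.9%. GSK3B, its paralog, was at 152.0 and 148.4 against 165.8 and 156.3 CPM in HT29 and at 116.0 and 107.7 against 116.7 and 111.3 CPM in SW480. The HT29 groups did not overlap and those of SW480 did, with estimates of 0.10 (adjusted p = 0.152, edgeR) and 0.03 (adjusted p = 0.898). Without SW480 control replicate 1 or 2 the latter was 0.08 and -0.03, and neither passed.

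CSNK1A1, whose kinase primes beta-catenin, read 229.4 and 238.3 CPM under control siRNA in HT29 and 244.0 and 245.3 under PRDX2 siRNA. The depleted libraries were higher by an estimate of 0.06 (95% interval -0.02 to 0.14, adjusted p = 0.28, edgeR). In SW480 the values of 266.7 and 232.8 against 241.2 and 237.2 CPM overlapped (-0.06, adjusted p = 0.752). Without control replicate 2 the estimate was -0.16 and passed, and without control replicate 1 it was 0.04 and did not.

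Of the F-box proteins, FBXW11 was called in both lines and BTRC in neither. FBXW11 in HT29 went from 87.62 and 82.11 CPM to 75.06 and 74.39 CPM. Both depleted libraries lay below both controls, a log2 fold change of -0.19 (95% interval -0.30 to -0.07, adjusted p = 0.0253, edgeR). In SW480 it went from 124.6 and 115.1 CPM to 81.87 and 76.18 CPM, 1.52-fold lower (log2 fold change -0.60, 95% interval -0.85 to -0.35, adjusted p = 0.0286, edgeR).

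The SW480 fall of FBXW11 was -0.45 with the GC offset and -0.55 and -0.66 without control replicate 1 and 2, and passed in each. Without PRDX2 siRNA replicate 1 or 2 it was -0.65 and -0.55 and did not pass (adjusted p = 0.377 and 0.594, edgeR). BTRC, the paralog with the same substrate, was at 24.68 and 25.94 against 25.83 and 26.93 CPM in HT29 and at 37.08 and 35.39 against 36.37 and 32.82 CPM in SW480. The groups overlapped in both lines, with estimates of 0.06 (95% interval -0.13 to 0.25) and -0.07 (95% interval -0.36 to 0.23) and adjusted p of 0.736 and 0.778 from edgeR. Without SW480 control replicate 1 or 2 the latter was -0.04 and -0.11, and neither passed.

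**Figure D3:**
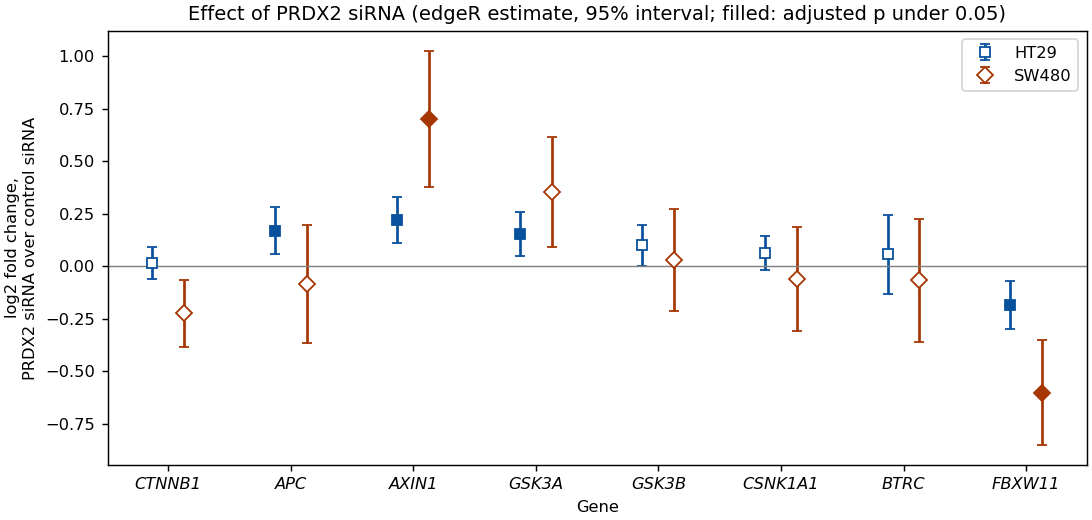
The log2 fold change of PRDX2 siRNA over control siRNA for each gene in HT29 (squares) and SW480 (diamonds), with 95% intervals from edgeR and filled symbols for an adjusted p under 0.05. AXIN1 is above 0 and FBXW11 below 0 in both lines, and the SW480 intervals are wider for every gene.

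The calls in HT29 rested on small changes between close duplicates. The CPM of 6 of the 8 genes did not overlap between the groups in HT29, where 57.1% of all genes tested did not, and those of 4 of 8 in SW480, where 58.7% did not. DESeq2, the tool of the study, called only AXIN1 in HT29 (log2 fold change 0.23, adjusted p = 0.0303, 5.99% of genes called) and AXIN1 and FBXW11 in SW480 (3.63% called). limma on log2(TPM + 1) called AXIN1 and GSK3A in HT29 (13.9% called) and none of the 8 in SW480 (1.52% called). In SW480 AXIN1 had 0.77 (adjusted p = 0.059, limma) and FBXW11 -0.50 (adjusted p = 0.0817). There 3 of the 8 had an unadjusted p under 0.05 with limma, as did 3596 of all 14112 genes. With all 8 libraries fitted together, edgeR called none of the 8 in HT29 (1.25% of genes called) and CTNNB1, AXIN1, GSK3A and FBXW11 in SW480 (16.3% called). For HT29, 2 of the 8 had an unadjusted p under 0.05 in that fit, as did 1918 of all 14772 genes. With the GC offset the 4 genes called in HT29 were the same (21.9% called), and GSK3A joined AXIN1 and FBXW11 in SW480 (17.1% called).

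Leaving out HT29 control replicate 1 left AXIN1 called (15.8% of all genes called), control replicate 2 left APC, AXIN1 and FBXW11 (14.8%), PRDX2 siRNA replicate 1 left AXIN1 and GSK3A (12.3%), and PRDX2 siRNA replicate 2 left none (13.2%). AXIN1 then had an estimate of 0.17 (adjusted p = 0.0683, edgeR). The direction of the 4 genes called in HT29 was the same in each of these fits.

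**Figure D4:**
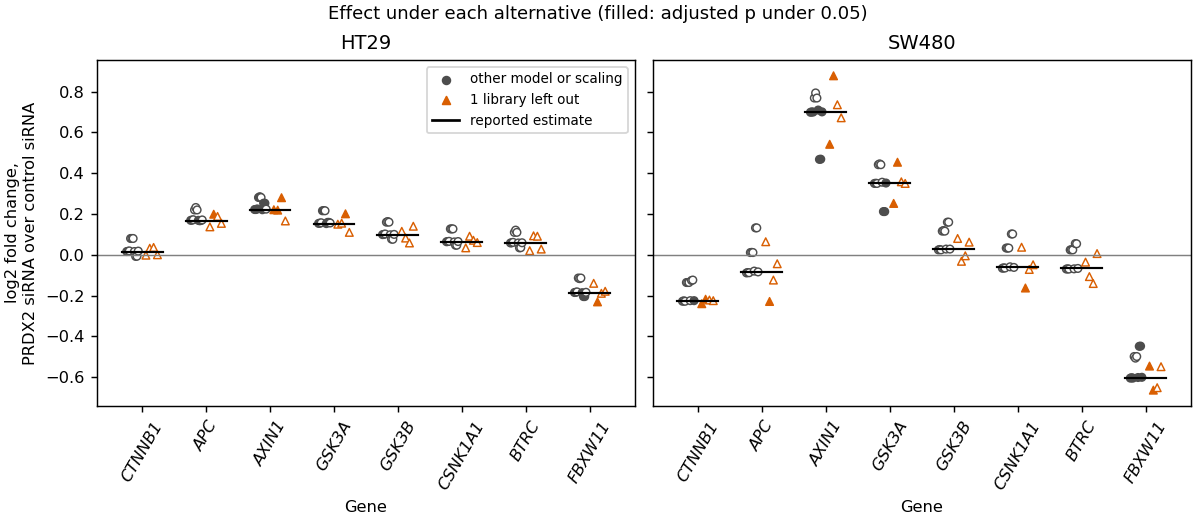
The log2 fold change of PRDX2 siRNA over control siRNA for each gene in HT29 and SW480 under each alternative fit, with circles for other models or scalings, triangles for fits with 1 library left out, filled symbols for an adjusted p under 0.05 and a black line at the reported estimate. In SW480 AXIN1 ranges from 0.47 to 0.88 and FBXW11 from -0.66 to -0.45, whereas APC, GSK3B, CSNK1A1 and BTRC spread across 0.

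Whether the lines differed in their response was tested in 1 fit of all 8 libraries. The depletion itself differed, with log2 fold changes of PRDX2 of -0.87 in HT29 and -1.70 in SW480. Line and depth of depletion therefore cannot be told apart in this test. With edgeR, none of the 8 genes passed, where 1.12% of 14772 genes did. An unadjusted p under 0.05 was reached by 3 of them, FBXW11 (HT29 minus SW480 0.42, 95% interval 0.16 to 0.67, adjusted p = 0.104), CTNNB1 (0.24, 0.08 to 0.40, adjusted p = 0.123) and AXIN1 (-0.48, -0.80 to -0.16, adjusted p = 0.131). Over all genes tested, 2835 of 14772 had an unadjusted p under 0.05 in that edgeR fit. DESeq2 and limma also called none of the 8. With the GC offset none passed either, where 6.44% of all genes did, and the differences shrank to 0.25 for FBXW11 (adjusted p = 0.0892), 0.12 for CTNNB1 (adjusted p = 0.333) and -0.21 for AXIN1 (adjusted p = 0.153, edgeR). Without SW480 control replicate 1 these 3 genes passed, with differences of 0.36, 0.26 and -0.32, where 9.32% of all genes did. Without control replicate 2 they passed together with APC, GSK3A and CSNK1A1, where 35.7% of all genes did. These fits rest on the single control library left in SW480, and it is assumed to vary like the other groups.

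The paralog pairs were then read as shares of their summed TPM, which no test was run on. The median log2 fold change over all genes tested was 0.06 in HT29 and 0.08 in SW480 on the log2(TPM + 1) scale. With edgeR it was 0.00 in each line. Sums of TPM compared between siRNA groups carry this shift, and shares within a library do not. In SW480, BTRC made up 17.8% and 18.3% of the BTRC and FBXW11 message in control libraries and 24.4% and 23.9% with PRDX2 siRNA, while the sum was 77.0 and 71.0 TPM before and 58.6 and 54.0 TPM after. In HT29 the share was 17.2% and 18.9% against 20.1% and 21.0%, and the sum 49.1 and 46.9 against 45.8 and 45.6 TPM. The depleted libraries had the higher BTRC share in both lines. GSK3A made up 69.9% and 70.5% of the GSK3 message in HT29 control libraries and 69.8% and 72.2% with PRDX2 siRNA, and 69.4% and 73.8% against 75.5% and 76.5% in SW480.

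The other axin was read in the same way. AXIN2, the second axin and a target gene of beta-catenin itself, went from 101.0 and 100.2 CPM to 66.08 and 67.01 CPM in HT29, a fall of 1.51-fold (log2 fold change -0.60, adjusted p = 2.45e-07, edgeR). In SW480 it was at 669.3 and 704.7 against 711.7 and 720.3 CPM (0.06, adjusted p = 0.694, edgeR). As shares of TPM, AXIN1 made up 55.1% and 55.2% of the axin message in HT29 control libraries and 67.8% and 69.1% with PRDX2 siRNA, while the sum of both axins was 111 and 111 against 106 and 112 TPM. In SW480 AXIN1 made up 5.02% and 5.96% of the axin message in control libraries and 8.22% and 8.41% with PRDX2 siRNA, with sums of 381 and 402 against 445 and 451 TPM. These sums carry the shift of TPM given above. In mean CPM, AXIN1 went from 105 to 122 in HT29, while AXIN2 went from 101 to 66.5. In SW480 the means went from 33.8 to 55.1 for AXIN1 and from 687 to 716 for AXIN2. The ratio of CTNNB1 to AXIN1 TPM was 2.20 and 2.07 with PRDX2 siRNA in HT29 and 27.4 and 26.5 in SW480, below the control values given above in each line. The ratio of CTNNB1 to the sum of both axins, on which no test was run, was higher with PRDX2 siRNA in HT29 and lower in SW480. In HT29 it was 1.33 and 1.38 in control libraries against 1.49 and 1.43 with PRDX2 siRNA, and in SW480 2.87 and 2.77 against 2.25 and 2.23.

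**Figure D5:**
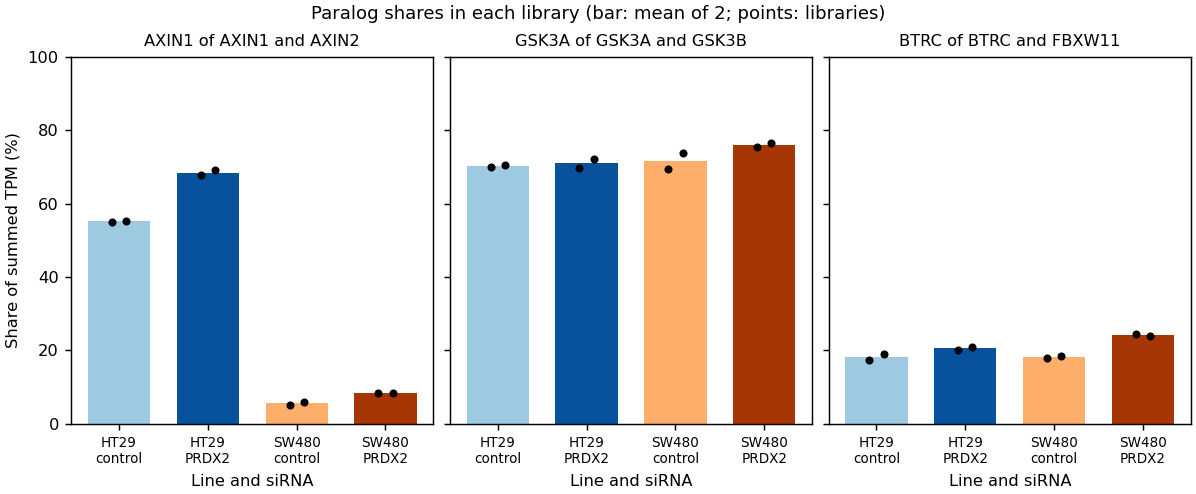
The share of AXIN1 in the axin message, of GSK3A in the GSK3 message and of BTRC in the BTRC and FBXW11 message, as a percentage of summed TPM, with bars for the mean of 2 libraries and points for each library. AXIN1 holds 55.1% to 69.1% of the axin message in HT29 and 5.02% to 8.41% in SW480, whereas the GSK3A and BTRC shares differ little between the lines.

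The genes around the complex were read from 4 lists, beside the 8 genes, whose median log2 fold change was 0.08 in HT29 and -0.07 in SW480 against 0.00 over all genes tested in each line. Of 20 complex partners (other axin, APC and casein kinase 1 isoforms, protein phosphatase 2A subunits and GSK3 inhibitors), 19 were tested in HT29, where 2 rose, 1 fell and the median was 0.04. Since 17.6% of all genes tested were called there, the count of 3 of 19 is no result about the list. CSNK1G1, a casein kinase 1 gamma isoform, rose by 0.15 (adjusted p = 0.0459, edgeR), PPP2R5A, a regulatory subunit of protein phosphatase 2A, rose by 0.20 (adjusted p = 0.018), and AXIN2 was the gene that fell. Without HT29 control replicate 1 or PRDX2 siRNA replicate 1 neither of the 2 that rose passed (0.12 and 0.16 for CSNK1G1, 0.19 and 0.18 for PPP2R5A), and without PRDX2 siRNA replicate 2 CSNK1G1 did not (0.14). DESeq2 called neither. In SW480 edgeR called 0 of 20, and the median was 0.14. There 6 had an unadjusted p under 0.05, as did 3447 of all 14112 genes tested (edgeR).

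The 15 genes of the ubiquitin ligase and tankyrase arm include the tankyrases, which mark axin for degradation by poly(ADP-ribosyl)ation. In HT29, SKP1, the adaptor between F-box protein and cullin, fell by 0.15 on the log2 scale (adjusted p = 0.0217, edgeR). It did not pass without HT29 control replicate 1 (-0.11) or PRDX2 siRNA replicate 2 (-0.12), nor with DESeq2. The list median was 0.03 in HT29. In SW480 edgeR called 0 of 15, and the median was -0.11. There 2 had an unadjusted p under 0.05, as did 3447 of all 14112 genes tested (edgeR). The tankyrase genes, named for the study's question, were not called. TNKS had estimates of 0.03 in HT29 (adjusted p = 0.868) and -0.27 in SW480 (adjusted p = 0.222), and TNKS2 of 0.03 (adjusted p = 0.723) and -0.14 (adjusted p = 0.506).

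Of 15 binding partners of beta-catenin at junctions and in the nucleus, 12 were tested in HT29, and 2 rose, a count near the 17.6% of all genes called there. CTNND1, the gene of p120-catenin, rose by 0.10 (adjusted p = 0.00391, edgeR), and EP300, a histone acetyltransferase and co-activator, rose by 0.28 (adjusted p = 4.02e-04). CTNND1 did not pass without PRDX2 siRNA replicate 1 (0.09, adjusted p = 0.0532, edgeR). In SW480 edgeR called 0 of 15. An unadjusted p under 0.05 was reached by 7 of them, and by 3447 of all 14112 genes tested (edgeR). The list medians were 0.05 in HT29 and 0.30 in SW480. The SW480 medians of these lists were not recomputed with the GC offset or without a control library. They therefore carry the gap between the SW480 control duplicates.

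The 20 target genes include several that the study named from these same libraries, so their direction is not independent evidence. In HT29, 17 were tested, and 1 rose and 5 fell, where 17.6% of all genes were called. NKD1, a feedback inhibitor of the pathway, went from 4.45 and 3.77 CPM to 15.03 and 17.16 CPM in HT29, a rise of 3.89-fold (adjusted p = 2.01e-07, edgeR). The 5 that fell were AXIN2, the Wnt antagonist DKK1 (-0.65), the cyclin gene CCND1 (-0.52), the matrix protease gene MMP7 (-0.32) and the adhesion receptor gene CD44 (-0.25). In SW480 edgeR called 1 of 20, where 3.30% of all genes tested were called, so the count is no result about the list. The gene was CCND1, at 1285 and 1317 CPM in control libraries and 866.8 and 861.4 CPM with PRDX2 siRNA (log2 fold change -0.59, adjusted p = 0.00881, edgeR). It passed at -0.61 and -0.58 without control replicate 1 or 2 and did not pass without PRDX2 siRNA replicate 1 or 2 (adjusted p = 0.283 and 0.326, edgeR). The list medians were -0.03 and -0.02.

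The promoters of AXIN1 and FBXW11 are shown because these were the genes called in both lines, in opposite directions. The sequences are RefSeq's 250 bases before the gene start on GRCh38.p14, written along the gene's strand, at chr16:352724-352973 (minus strand) for AXIN1 and chr5:172006639-172006888 (minus strand) for FBXW11.
AXIN1: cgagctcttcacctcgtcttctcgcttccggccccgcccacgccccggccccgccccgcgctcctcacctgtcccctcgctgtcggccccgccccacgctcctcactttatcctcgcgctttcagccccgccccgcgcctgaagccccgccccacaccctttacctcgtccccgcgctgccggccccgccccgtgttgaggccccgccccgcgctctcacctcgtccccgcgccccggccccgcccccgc
FBXW11: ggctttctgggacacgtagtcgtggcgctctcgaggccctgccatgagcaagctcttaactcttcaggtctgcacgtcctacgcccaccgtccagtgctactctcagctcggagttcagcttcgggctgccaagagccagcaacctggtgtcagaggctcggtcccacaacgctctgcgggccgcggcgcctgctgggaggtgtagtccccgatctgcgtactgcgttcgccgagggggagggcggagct
Neither holds the TCF/LEF core CTTTGA or the antioxidant response element TGACNNNGC on either strand, so no letter is in capitals. Over the 35116 promoters of the table, 11.2% held the first and 10.9% the second, and among the 9 promoters listed for 7 of the 8 genes 0 held the first and 1, of CSNK1A1, the second. The AXIN1 window had 77.6% GC and that of FBXW11 64.8%, against a median of 58.0% over the table.

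Across the 8 libraries and 10503 genes with a mean of at least 10 CPM, the log2 CPM of PTTG1IP, SPARC and NPTX2 followed CTNNB1 most closely, with Pearson's r of 1.00, 0.9999 and 0.9998. The points share the cell line, and the step between the lines sets these values. PTTG1IP was at 256.5 to 261.7 CPM in HT29 and 639.5 to 698.7 CPM in SW480, and SPARC and NPTX2 were at 0 counts in all 4 HT29 libraries, so their level there was under the floor of 3 counts. Among the other 7 genes of the complex, BTRC (0.975), APC (0.87), FBXW11 (0.582) and CSNK1A1 (0.26) had a positive r with CTNNB1, and GSK3B (-0.975), AXIN1 (-0.946) and GSK3A (-0.639) a negative one.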

How the data were processed

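Messenger RNA was measured in 8 libraries grouped by their labels. Per the study's methods, written for HT29, MapSplice placed the reads on hg19 and RSEM counted them over refGene, and the SW480 files have the same columns. The authors deposited expected counts (RSEM's estimated counts per gene), TPM scaled for length and library, and FPKM, which was not used here. The deposited expected counts summed to 8857442 to 10164137 per library. The study reports far more reads than this per HT29 sample, and the reason for the gap was not tested.

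Expected counts were rounded and tested with edgeR 4.0.16 (quasi-likelihood, TMM, at least 10 counts in at least 2 libraries of the fit, Benjamini-Hochberg over all genes tested, threshold 0.05) in each line, between the control libraries, and for the difference of effects. Printed CPM use TMM factors over all 8 libraries. Alternatives were RLE, no filter, DESeq2 1.42.0, limma 3.58.1 on log2 TPM with a pseudocount of 1 or 0.1, a replicate block, a transcript GC offset (84% of symbols matched), all 8 libraries and leaving out each library. Intervals and floors cover these libraries only, the floor counting error only. Scripts were tested on simulated counts.

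Named genes were the 8 members, PRDX2, list genes with an adjusted p under 0.05 in a line, and the 3 genes most correlated with CTNNB1. Some genes that this rule or the lists take are not reported here. Members and lists were chosen with earlier results of these data known. Gene positions came from GENCODE on GRCh37, and promoters from RefSeq.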

Additional observations from a re-analysis of the deposited data

Results flagged for a closer look

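The effect of PRDX2 siRNA differed between the lines for 3 of the genes named, by edgeR's test of the difference in 1 fit of all 8 libraries. For PRDX2 itself the log2 difference, HT29 minus SW480, was 0.84 (adjusted p = 0.0128), with log2 fold changes of -0.87 in HT29 and -1.70 in SW480. For AXIN2 it was -0.66 (adjusted p = 0.00888), with -0.60 in HT29 and 0.06 in SW480. For NKD1 it was 2.26 (adjusted p = 1.65e-04), with 1.96 in HT29 and -0.30 in SW480. The difference for PRDX2 and AXIN2 lost the threshold when any library but an SW480 control was left out, at 0.81 to 0.86 and -0.67 to -0.65 (adjusted p of 0.102 to 0.159, edgeR). None of the 8 genes of beta-catenin and its destruction complex passed that test with edgeR, and DESeq2 also called none. With edgeR, 3 of the 8 had an unadjusted p under 0.05, as did 2835 of all 14772 genes tested.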

How the results depend on the processing

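Of 471 estimates for the 8 genes under alternatives, 370 kept direction and side of the threshold, 51 lost the threshold, 20 gained it and 30 changed sign. No estimate that had passed changed sign. The cause of these moves was not tested. In HT29 the genes called went from 2279 to 1029 with DESeq2, 451 with limma without a filter and 185 with all 8 libraries, and the called members from 4 to 1, 0 and 0, and to 2 with limma at either pseudocount. In SW480 they went from 466 to 214 and 177 with limma at the pseudocounts 1 and 0.1, 0 without a filter (3572 at an unadjusted p under 0.05), 2310 with the GC offset, 3055 with that offset and the replicate block and 2415 with all 8 libraries, and the called members from 2 to 0 in the 3 limma fits and 4 with all 8 libraries. The 166 differences between lines became 267 without a filter, 302 with DESeq2, 103, 43 and 78 with limma, 907 with the GC offset and 926 with the block added. With limma on log2(TPM + 1), 69.6% of calls in HT29 and 58.9% in SW480 were higher, against 44.1% and 36.9% with edgeR.

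With a library left out, the calls ranged from 1574 to 2030 in HT29, 87 to 7364 in SW480, 6 to 5237 for the difference and 6905 to 9970 between lines, and the called members from 0 to 3, 0 to 6, 0 to 6 and 2 to 8. The lone library is then assumed to vary like the others.

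Same-numbered libraries deviated together by r = 0.046 in HT29 and 0.081 in SW480, so the numbers were not taken as pairs. With the replicate block, 2889 genes passed in HT29, 1727 in SW480, 196 for the difference and 10044 between lines, and the called members were those of the reported fits.

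The sign changes were small values. With the GC offset, alone and with the block, the HT29 effect on CTNNB1 was -0.008 and -0.007, and the SW480 effect was 0.132 in both fits for APC, 0.102 in both for CSNK1A1, 0.055 and 0.054 for BTRC and -0.055 in both for AXIN2. The difference between lines was then -0.080 in both fits for GSK3B, -0.047 in both for CSNK1A1, and -0.019 and -0.018 for BTRC. With limma the SW480 effect was 0.011, 0.012 and 0.011 for APC, 0.033 in all 3 fits for CSNK1A1, and 0.024, 0.025 and 0.024 for BTRC. With a library left out, the HT29 effect on CTNNB1 ranged from -0.002 to 0.036, and the SW480 effect from -0.229 to 0.064 for APC, from -0.032 to 0.08 for GSK3B, from -0.163 to 0.037 for CSNK1A1 and from -0.141 to 0.006 for BTRC.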
